A study of Homo sapiens with 18 samples.

Results

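The 36 genes described here encode aminoacyl tRNA synthetases, 20 of the cytosol and 16 of mitochondria. They were chosen by gene name, and all 36 were found among the 26249 genes of the deposited tables. RNA was measured by 3′ end sequencing (QuantSeq) in 18 libraries, 3 for each of 6 groups. Cells labelled XG1 or AMO1, both given as multiple myeloma lines, received YKL-5-124 at 100 nM, YKL-5-124 at 1000 nM, or DMSO alone, each for 6 h. YKL-5-124 is a covalent inhibitor of CDK7, the kinase of transcription factor TFIIH that phosphorylates RNA polymerase II and activates the cell cycle kinases. The series title calls the lines resistant, and no sensitive line is among these libraries. Whether replicates came from separate cultures is not said in the labels, and each p-value is measured against a spread among libraries that may be no more than technical.

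A synthetase joins an amino acid to its tRNA, and the charged tRNA then serves the ribosome. Most amino acids have 1 enzyme for the cytosol and another, encoded by a separate nuclear gene whose symbol ends in 2, for mitochondria. GARS and KARS are exceptions whose products serve both compartments. Plasma cells and their tumours secrete large amounts of protein and depend on the supply of charged tRNA. When amino acids run short, cells translate more of the transcription factor ATF4, which binds response elements in genes for amino acid synthesis, amino acid transport and many cytosolic synthetases.

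The promoters of AARS, the alanyl enzyme, and YARS2, the mitochondrial tyrosyl enzyme, are printed because these were the cytosolic and the mitochondrial gene lowered in the largest number of dose comparisons. Each line holds the 250 bases before the RefSeq transcription start, 5′ to 3′ on the gene's own strand, which is the minus strand of GRCh38.p14 for both. Capitals mark the core of the amino acid response element, TGATGNAA, read on either strand.
AARS, chr16:70289507-70289756: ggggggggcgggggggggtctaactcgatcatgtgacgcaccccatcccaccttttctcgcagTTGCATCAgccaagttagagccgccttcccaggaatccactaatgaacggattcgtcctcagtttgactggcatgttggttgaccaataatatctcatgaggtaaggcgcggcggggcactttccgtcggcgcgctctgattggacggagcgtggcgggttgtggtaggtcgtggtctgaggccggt
YARS2, chr12:32755898-32756147: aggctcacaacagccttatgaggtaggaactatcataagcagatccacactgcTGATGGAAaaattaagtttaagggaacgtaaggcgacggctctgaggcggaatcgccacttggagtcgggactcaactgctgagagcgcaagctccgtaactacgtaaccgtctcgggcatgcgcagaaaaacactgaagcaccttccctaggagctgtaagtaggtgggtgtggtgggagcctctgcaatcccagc
RefSeq promoters running from 250 bases before to 50 bases after a start were found for 30 of the 36 genes (39 promoters), and there was no entry for DARS, LARS, VARS, YARS, AARS2 and VARS2. The core was present in 8 of the 39 promoters (20.5%), against 1270 of all 35116 human promoters of that length in the table (3.62%). It was found in 7 of 16 cytosolic genes (AARS, CARS, GARS, IARS, MARS, NARS and TARS) and in YARS2 among 14 mitochondrial genes. Windows of 30 bases around the match are given for 4 further cytosolic genes, again on the gene's strand, which is minus for CARS and IARS and plus for MARS and TARS, with the core in capitals.
CARS, chr11:3057407-3057436: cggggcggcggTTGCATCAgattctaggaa
IARS, chr9:92293692-92293721: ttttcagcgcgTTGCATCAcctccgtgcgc
MARS, chr12:57488053-57488082: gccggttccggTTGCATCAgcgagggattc
TARS, chr5:33440956-33440985: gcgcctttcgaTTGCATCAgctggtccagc
In AARS and YARS2 the match began 187 and 197 bases before the start. In CARS, IARS and MARS it began 2, 13 and 4 bases before the start, and in TARS at base 3 of the transcript. A match is a run of letters and not evidence of binding. The E-box CACGTG, read on either strand, was found in IARS, CARS2, EARS2 and MARS2, that is in 5 of the 39 promoters (12.8%), against 7.26% of all promoters.

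Levels are in FPKM, which scales read fragments by the length of the transcript and the size of the library. Between 9284 and 10571 genes reached 1 FPKM in a library, and the read depth is unknown. The libraries labelled XG1 went against their label: 1 of 10 plasma cell markers reached 10 FPKM in all 9 of them (summed level 44.4 to 75.9 FPKM) and 10 of 12 erythroid markers did (3811 to 4585 FPKM). In the AMO1 libraries these counts were 9 of 10 (4808 to 7249 FPKM) and 0 of 12 (3.68 to 30.8 FPKM), so XG1 below names the libraries labelled XG1. The median of all 12204 genes tested was itself lower by 0.19 (log2) at 1000 nM than in DMSO in XG1 and by 0.18 in AMO1. Without XG1 1000 nM replicate 2, the XG1 median was -0.10 and 7.63% of all genes were called lower there. Changes called at 1000 nM are therefore also given with each library centred on its median. AMO1 DMSO replicate 3 stood apart, with its median over all genes at -0.18 and over the cytosolic synthetases at -0.30 from the mean of its group.

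At 1000 nM YKL-5-124, 12 of the 36 synthetases were called lower in XG1 and 10 in AMO1, and no member was called higher at either dose. At 1000 nM in XG1, 9 of 20 cytosolic and 3 of 16 mitochondrial synthetases were lower (limma, Benjamini-Hochberg adjusted p under 0.05 over all genes). Of all genes tested there, 17.6% were called (15.7% lower and 1.9% higher). In AMO1 at 1000 nM, 5 of 20 cytosolic and 5 of 16 mitochondrial synthetases were lower, against 17.1% of all genes called (15.4% lower and 1.78% higher). The shares called lower were 45% of the cytosolic and 18.8% of the mitochondrial genes in XG1, and 25% and 31.2% in AMO1, so the mitochondrial share in XG1 was near that of all genes. Both doses are compared with the same DMSO libraries, so their results are not independent. At 100 nM the calls in XG1 were AARS, TARS and YARS2 (2 cytosolic and 1 mitochondrial, with 6.61% of all genes called, 3.98% lower and 2.63% higher). The only call at 100 nM in AMO1 was AARS, with 2.2% of all genes called, 1.76% lower and 0.434% higher. All 3 treated libraries lay below all 3 DMSO libraries for 12 cytosolic and 8 mitochondrial genes at 1000 nM in XG1, where 28% of all genes did, and for 9 and 6 in AMO1, where 31.2% did. At 100 nM these counts were 9 and 4 in XG1 (16.1% of all genes) and 3 and 3 in AMO1 (14.4%).

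**Figure D1:**
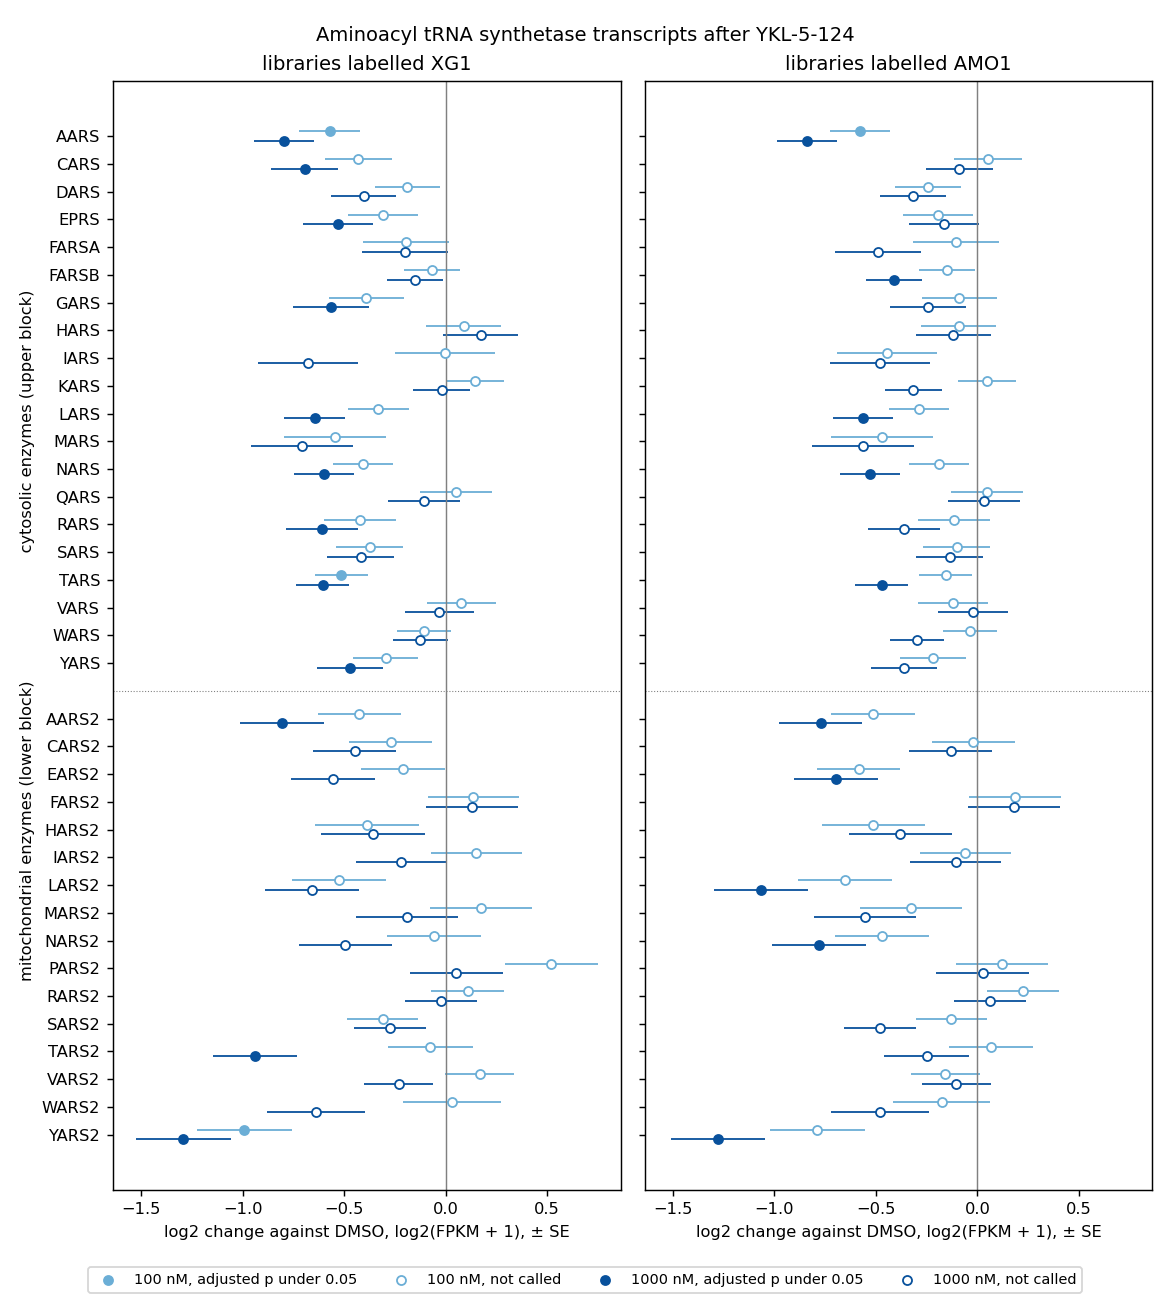
Log2 change on the log2(FPKM + 1) scale of each synthetase against DMSO, with its standard error, at 100 nM (light) and 1000 nM (dark), in XG1 (left) and AMO1 (right). Filled points passed an adjusted p of 0.05, and all of them lie below 0, from -0.41 for FARSB in AMO1 to -1.29 for YARS2 in XG1.

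With each library centred on its own median, 2 cytosolic genes (AARS and LARS) and 3 mitochondrial genes (AARS2, TARS2 and YARS2) were still called lower at 1000 nM in XG1. In AMO1, 1 cytosolic gene (AARS) and 3 mitochondrial genes (AARS2, LARS2 and YARS2) were. Centring moved the median change of all genes at 1000 nM to 0.07 in XG1 and 0.11 in AMO1. Over all genes it gave 7.94% lower and 7.94% higher calls in XG1, and 6.68% lower and 8.29% higher in AMO1. No member was called higher under centring. With libraries scaled on the ERCC spike-in RNAs instead, 8 cytosolic and 3 mitochondrial genes were lower at 1000 nM in XG1, and 5 and 5 in AMO1. Over all genes that scaling gave 1806 of 12207 lower in XG1 and 1881 in AMO1, with medians of -0.18 and -0.19. Under quantile normalization HARS, the histidyl enzyme, was called higher at 1000 nM in XG1, the 1 such call among the alternatives. In bulk libraries, fewer cells with a transcript and less of it per cell cannot be told apart.

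AARS was the 1 member called in all 4 comparisons of a dose with DMSO. Its product, alanyl tRNA synthetase, also edits tRNA that was charged with the wrong amino acid. AARS measured 24.6, 22.8 and 20.8 FPKM in the XG1 1000 nM libraries, against 43.2, 41.2 and 36.3 FPKM in XG1 DMSO. The XG1 100 nM libraries had 26.0, 27.1 and 26.9 FPKM. Neither dose overlapped DMSO, and the log2 changes were -0.57 ± 0.15 (SE) at 100 nM (adjusted p = 0.0234) and -0.80 ± 0.15 at 1000 nM (adjusted p = 0.00122; -0.54 when centred, adjusted p = 0.0127). In AMO1 it measured 14.3, 16.1 and 15.9 FPKM at 1000 nM, against 26.3, 36.1 and 24.2 FPKM in DMSO. The AMO1 100 nM libraries had 18.5, 17.9 and 19.8 FPKM. These groups did not overlap DMSO either, with changes of -0.58 ± 0.15 at 100 nM (adjusted p = 0.0454) and -0.84 ± 0.15 at 1000 nM (adjusted p = 0.000788; -0.55 when centred, adjusted p = 0.0122).

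TARS, the threonyl enzyme, was called in 3 of the 4 comparisons. It measured 126, 118 and 131 FPKM in XG1 at 1000 nM, against 186, 204 and 182 FPKM in DMSO, and 126, 140.4 and 133 FPKM at 100 nM. Every treated XG1 library lay below every DMSO library, with changes of -0.51 ± 0.13 at 100 nM (adjusted p = 0.0211) and -0.61 ± 0.13 at 1000 nM (adjusted p = 0.00333; -0.35 when centred, adjusted p = 0.0564). In AMO1 it had 149, 168 and 150.4 FPKM at 1000 nM, against 234, 235 and 184 FPKM in DMSO, without overlap. That change was -0.47 ± 0.13 (adjusted p = 0.0171; -0.18 when centred, adjusted p = 0.326). At 100 nM the AMO1 libraries had 199.6, 173 and 211 FPKM, which overlapped DMSO, a change of -0.16 ± 0.13 (adjusted p = 0.634).

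LARS, the leucyl enzyme, which also reports leucine supply to the growth kinase mTORC1, was called at 1000 nM in both lines. It measured 24.2, 22.1 and 25.2 FPKM in XG1 at 1000 nM, against 41.2, 37.9 and 34.6 FPKM in DMSO. The change was -0.65 ± 0.15 (adjusted p = 0.00561; -0.39 when centred, adjusted p = 0.0378). In AMO1, LARS measured 11.5, 13.6 and 16.7 FPKM at 1000 nM, against 21.1, 21.0 and 20.3 FPKM in DMSO. The change there was -0.56 ± 0.15 (adjusted p = 0.0131; -0.27 when centred, adjusted p = 0.143). Neither pair of groups overlapped, and at 100 nM the changes of -0.33 in XG1 and -0.29 in AMO1 were not called. NARS, the asparaginyl enzyme, had 42.7, 49.7 and 53.3 FPKM in XG1 at 1000 nM, against 69.7, 73.0 and 79.2 FPKM in DMSO (-0.60 ± 0.15, adjusted p = 0.00836; -0.34 when centred). In AMO1 it had 42.7, 51.3 and 46.5 FPKM at 1000 nM, against 74.7, 77.6 and 53.7 FPKM in DMSO (-0.53 ± 0.15, adjusted p = 0.0185; -0.23 when centred). NARS groups did not overlap in either line, and its centred changes were not called (adjusted p = 0.138 in XG1 and 0.309 in AMO1).

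**Figure D2:**
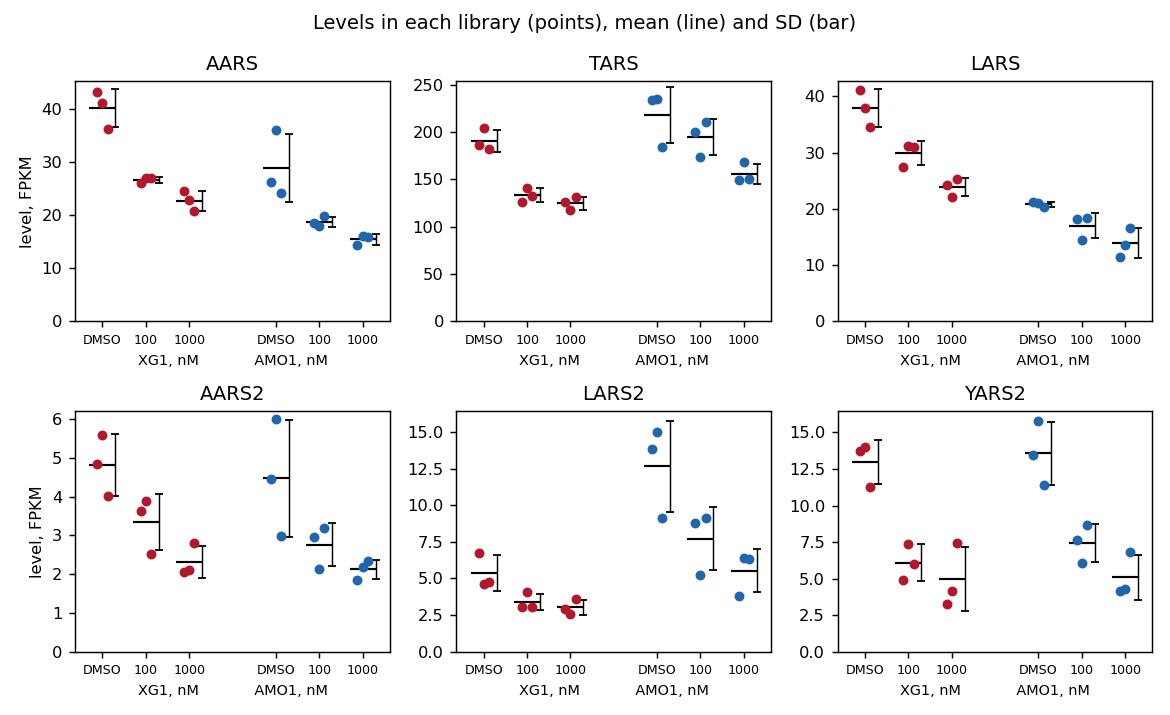
FPKM of 3 cytosolic (upper row) and 3 mitochondrial synthetases (lower row) in each of the 18 libraries, by line and dose, with the mean of 3 replicates as a line and the SD as a bar. At 1000 nM all 3 libraries of each gene and line lie below the 3 DMSO libraries of that line.

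A further 5 cytosolic enzymes were lower at 1000 nM in XG1 and not called in AMO1. CARS, the cysteinyl enzyme, measured 14.6, 15.8 and 15.3 FPKM in XG1 at 1000 nM, against 28.6, 23.5 and 24.0 FPKM in DMSO (-0.70 ± 0.17, adjusted p = 0.00658; -0.44 when centred, adjusted p = 0.0505). In AMO1, CARS had 41.6, 46.1 and 50.9 FPKM at 1000 nM, against 57.2, 57.1 and 36.1 FPKM in DMSO, and these groups overlapped (-0.09 ± 0.17, adjusted p = 0.799). RARS, the arginyl enzyme, had 31.6, 35.2 and 41.3 FPKM in XG1 at 1000 nM, against 58.5, 53.2 and 54.2 FPKM in DMSO (-0.61 ± 0.18, adjusted p = 0.0218; -0.35 when centred, adjusted p = 0.111). Neither CARS nor RARS overlapped DMSO in XG1. The other 3 were EPRS, which charges glutamate and proline, GARS and YARS, with changes of -0.53, -0.57 and -0.47 and adjusted p of 0.0383, 0.0401 and 0.0496. None of these 3 was called when centred. FARSB, a subunit of the phenylalanyl enzyme, was called in AMO1 and not in XG1. It measured 65.8, 66.1 and 70.3 FPKM at 1000 nM, against 104, 97.5 and 71.5 FPKM in AMO1 DMSO, without overlap (-0.41 ± 0.14, adjusted p = 0.0455; -0.12 when centred, adjusted p = 0.627).

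The other 10 cytosolic genes were called in none of the 4 dose comparisons. They were DARS, FARSA, HARS, IARS, KARS, MARS, QARS, SARS, VARS and WARS. MARS and IARS, for methionine and isoleucine, had changes in XG1 at 1000 nM about as large as called genes (-0.71 ± 0.25 and -0.68 ± 0.25) with larger errors, and adjusted p of 0.0574 and 0.0636. When centred they were -0.45 and -0.42. At the other end, HARS had 0.17 ± 0.18 in XG1 (adjusted p = 0.586), and QARS, the glutaminyl enzyme, had 0.03 ± 0.18 in AMO1 (adjusted p = 0.949). Each was the only cytosolic gene of its line with a change above 0 at 1000 nM, before centring. When centred, the HARS and QARS changes were above 0 in both lines.

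Among the mitochondrial enzymes YARS2 had the largest changes and was called in 3 comparisons. YARS2 averaged 4.94 ± 2.2 FPKM at 1000 nM and 13.0 ± 1.51 FPKM in DMSO in XG1 (SD, n = 3 each). The single libraries had 3.24, 4.16 and 7.43 FPKM at 1000 nM, against 13.7, 14.0 and 11.3 FPKM in DMSO, and 4.89, 7.38 and 6.00 FPKM at 100 nM. No treated library reached the lowest DMSO library, and the changes were -0.99 ± 0.23 at 100 nM (adjusted p = 0.0144) and -1.29 ± 0.23 at 1000 nM (adjusted p = 0.000915; -1.03 when centred, adjusted p = 0.00124). AMO1 libraries had 4.13, 4.26 and 6.85 FPKM of YARS2 at 1000 nM, against 13.5, 15.8 and 11.4 FPKM in DMSO. The 1000 nM change in AMO1 was -1.28 ± 0.23 (adjusted p = 0.00101; -0.98 when centred, adjusted p = 0.00194). At 100 nM the AMO1 libraries had 7.61, 6.04 and 8.66 FPKM, also without overlap, and the change of -0.79 ± 0.23 was not called (adjusted p = 0.0818).

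AARS2, the mitochondrial alanyl enzyme, was lower at 1000 nM in both lines. It measured 2.06, 2.10 and 2.80 FPKM at 1000 nM in XG1, against 4.84, 5.60 and 4.01 FPKM in DMSO (-0.81 ± 0.21, adjusted p = 0.0104; -0.55 when centred, adjusted p = 0.0175). In AMO1 it measured 1.86, 2.19 and 2.34 FPKM at 1000 nM, against 4.45, 6.00 and 2.98 FPKM in DMSO (-0.77 ± 0.21, adjusted p = 0.0134; -0.48 when centred, adjusted p = 0.0364). AARS2 groups did not overlap in either line at 1000 nM. LARS2, the mitochondrial leucyl enzyme, was called in AMO1, with 3.81, 6.41 and 6.35 FPKM at 1000 nM, against 13.9, 15.0 and 9.12 FPKM in DMSO (-1.07 ± 0.23, adjusted p = 0.0036; -0.77 when centred, adjusted p = 0.0052). In XG1 it had 2.88, 2.57 and 3.60 FPKM at 1000 nM, against 6.77, 4.60 and 4.75 FPKM in DMSO (-0.66 ± 0.23, adjusted p = 0.0547; -0.40 when centred). LARS2 groups did not overlap in either line, and the XG1 change missed the threshold.

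TARS2, the mitochondrial threonyl enzyme, was called in XG1, with 2.11, 1.42 and 2.78 FPKM at 1000 nM, against 5.65, 5.06 and 3.98 FPKM in DMSO (-0.94 ± 0.21, adjusted p = 0.00407; -0.68 when centred, adjusted p = 0.00381). XG1 libraries at 100 nM had 5.28, 5.56 and 3.17 FPKM of TARS2, which overlapped DMSO (-0.08 ± 0.21, adjusted p = 0.916). In AMO1 it had 14.3, 14.0 and 13.0 FPKM at 1000 nM, against 18.9, 18.6 and 12.9 FPKM in DMSO (-0.25 ± 0.21, adjusted p = 0.47). The TARS2 libraries at 1000 nM thus lay below DMSO in XG1 and overlapped DMSO in AMO1. EARS2 and NARS2, for glutamate and asparagine, were called in AMO1 alone. EARS2 measured 1.34, 1.76 and 2.46 FPKM at 1000 nM, against 2.83, 4.06 and 3.90 FPKM in AMO1 DMSO (-0.70 ± 0.21, adjusted p = 0.025; -0.40 when centred, adjusted p = 0.151). NARS2 measured 1.59, 1.00 and 1.34 FPKM at 1000 nM, against 2.08, 3.30 and 3.66 FPKM in AMO1 DMSO (-0.78 ± 0.23, adjusted p = 0.0246; -0.49 when centred, adjusted p = 0.0905). Neither overlapped DMSO, and in XG1 their changes were -0.56 and -0.49 (adjusted p = 0.0689 and 0.15).

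The remaining 10 mitochondrial genes (CARS2, FARS2, HARS2, IARS2, MARS2, PARS2, RARS2, SARS2, VARS2 and WARS2) were called in no dose comparison. WARS2, the tryptophanyl enzyme, had the largest change among them in XG1 at 1000 nM (-0.64 ± 0.24, adjusted p = 0.0737). FARS2, the phenylalanyl enzyme, had changes above 0 in both lines (0.13 ± 0.23 in XG1 and 0.18 ± 0.23 in AMO1, adjusted p = 0.771 and 0.669). PARS2, the prolyl enzyme, had the highest change of any member, 0.52 ± 0.23 at 100 nM in XG1, where its 3 libraries (5.75, 4.97 and 5.17 FPKM) all lay above DMSO (4.0, 2.99 and 3.22 FPKM). That change was not called (adjusted p = 0.193).

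Several of these calls rested on single libraries. At 1000 nM, AARS, LARS, TARS2 and YARS2 in XG1 and AARS, LARS2 and YARS2 in AMO1 were called under every alternative tried. AARS2 was lost in XG1 without XG1 DMSO replicate 2 (adjusted p = 0.0554), and in AMO1 without AMO1 DMSO replicate 2 (0.0986) or AMO1 1000 nM replicate 1 (0.0629). EPRS, GARS, RARS and YARS in XG1 were all lost without XG1 DMSO replicate 1 or 2 or without XG1 1000 nM replicate 1 or 2 (adjusted p between 0.0515 and 0.178). Without XG1 DMSO replicate 3, EPRS, GARS and YARS were lost (0.0637, 0.0717 and 0.106). Without AMO1 1000 nM replicate 2 the adjusted p was 0.0503 for EPRS and 0.0515 for GARS, and without AMO1 1000 nM replicate 1 it was 0.0501 for GARS. YARS was lost under 21 alternatives (highest adjusted p 0.388). In AMO1, LARS, NARS and TARS were lost without AMO1 1000 nM replicate 1 (0.0944, 0.0896 and 0.0712), NARS and TARS without AMO1 DMSO replicate 1 (0.0835 and 0.075) or 2 (0.1 and 0.0809), and TARS without AMO1 1000 nM replicate 3 (0.057). EARS2 and NARS2 were lost without AMO1 DMSO replicate 2 or 3 or AMO1 1000 nM replicate 2, EARS2 also without AMO1 1000 nM replicate 1 and NARS2 without AMO1 1000 nM replicate 3 (adjusted p between 0.0505 and 0.133). FARSB was lost under 20 alternatives (highest 0.627), with adjusted p up to 0.208 where a single library was left out (AMO1 DMSO replicate 1).

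Without AMO1 DMSO replicate 3, 11 cytosolic and 5 mitochondrial genes were lower in AMO1 at 1000 nM, while 23.7% of all genes were. HARS2 and SARS2 were then called and EARS2 and NARS2 were not. At 100 nM in AMO1, 1 cytosolic and 4 mitochondrial genes were then lower (AARS, AARS2, HARS2, LARS2 and YARS2), while 7.48% of all genes were. Without XG1 1000 nM replicate 2, 5 cytosolic (AARS, CARS, LARS, NARS and TARS) and 3 mitochondrial genes were lower in XG1 at 1000 nM, while 7.63% of all genes were. Without XG1 1000 nM replicate 3, 12 cytosolic and 6 mitochondrial genes were lower in XG1 at 1000 nM, while 19.5% of all genes were. The XG1 counts without AMO1 DMSO replicate 3, through the shared estimate of spread, were 12 cytosolic and 5 mitochondrial at 1000 nM and 6 and 1 at 100 nM. Over all genes, 2355 of 12268 were then lower in XG1 at 1000 nM and 767 of 12268 at 100 nM. All 3 calls at 100 nM in XG1 were lost without XG1 DMSO replicate 1, XG1 DMSO replicate 2 or XG1 100 nM replicate 1 (adjusted p between 0.0538 and 0.105). AARS and TARS there were also lost without XG1 100 nM replicate 3 (0.0679 and 0.0682), and AARS without XG1 100 nM replicate 2 (0.0534). The AARS call at 100 nM in AMO1 was lost under 20 alternatives (adjusted p between 0.00741 and 0.227 over all that were tried, highest without AMO1 DMSO replicate 2).

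The cytosolic and mitochondrial genes were set side by side by their medians. At 1000 nM in XG1 the median log2 change was -0.50 for the cytosolic, -0.40 for the mitochondrial and -0.19 for all genes tested. In AMO1 at 1000 nM it was -0.34, -0.43 and -0.18 in the same order. At 100 nM the medians were -0.30, -0.07 and -0.01 in XG1 and -0.14, -0.17 and -0.09 in AMO1. The cytosolic minus mitochondrial median was -0.24 at 100 nM and -0.10 at 1000 nM in XG1, and 0.03 and 0.09 in AMO1. In each group both medians lay below that of all genes. When centred, the medians at 1000 nM were -0.24 and -0.15 in XG1 and -0.05 and -0.14 in AMO1.

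**Figure D3:**
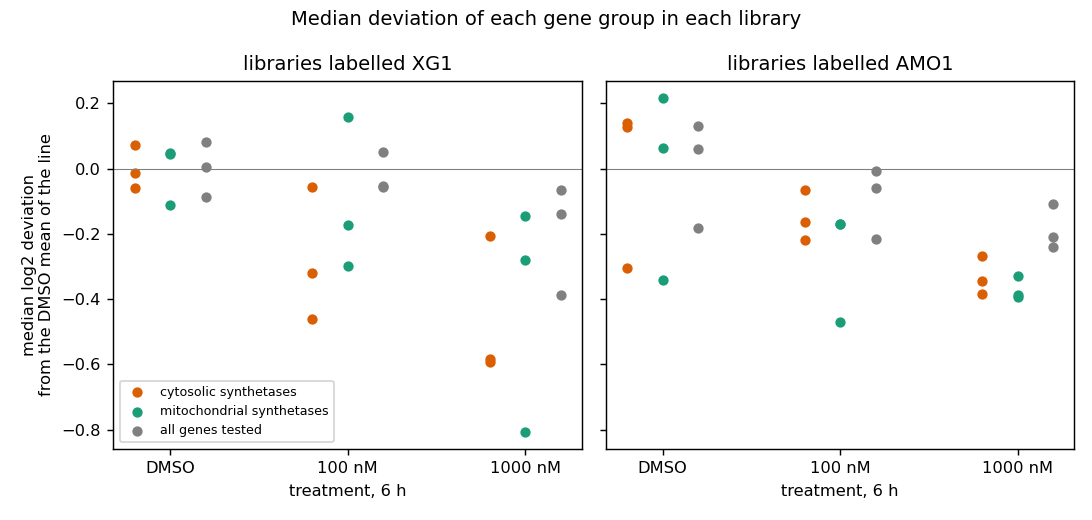
Median over the 20 cytosolic genes, the 16 mitochondrial genes and all genes tested of the log2 deviation from the DMSO mean of the line, for each library. The 3 XG1 1000 nM libraries spread from -0.59 to -0.21 for the cytosolic and from -0.81 to -0.15 for the mitochondrial genes, and the AMO1 libraries at that dose lie closer together.

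The SD over 3 libraries of that difference was 0.14 at 100 nM and 0.27 at 1000 nM in XG1, and 0.12 and 0.025 in AMO1, while in the 3 AMO1 DMSO libraries the difference ran from -0.091 to 0.074. In the 3 XG1 libraries at 1000 nM the cytosolic median was -0.59, -0.58 and -0.21, and the mitochondrial median was -0.28, -0.81 and -0.15. The cytosolic median was the lower one in replicates 1 and 3 and the higher one in replicate 2, whose median over all genes was -0.39. In AMO1 at 1000 nM the cytosolic median was -0.38, -0.35 and -0.27, against -0.39, -0.39 and -0.33 for the mitochondrial genes. These gaps were within the range of the AMO1 DMSO libraries, and the difference at 1000 nM turned to -0.017 without AMO1 DMSO replicate 1 and to -0.0061 without AMO1 1000 nM replicate 2. At 1000 nM in XG1 it turned to 0.028 without XG1 1000 nM replicate 1. At 100 nM in AMO1 it was below 0 without AMO1 DMSO replicate 2 or AMO1 100 nM replicate 2 or 3 (lowest -0.017). At 100 nM in XG1 the difference was -0.29, -0.21 and -0.023 in the 3 libraries, against -0.062 to 0.051 in XG1 DMSO. Replicate 3 there lay within the range of XG1 DMSO. The difference between the classes was not tested, and neither class was shown to be the lower one at either dose in either line. The AMO1 DMSO libraries spread from -0.30 to 0.14 for the cytosolic and from -0.34 to 0.22 for the mitochondrial genes. AMO1 DMSO replicate 3 was the lowest in both.

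In 13 pairs the 2 enzymes charge the same amino acid and their symbols differ only by the final 2. Pairs with unlike symbols were left out of the counts (EPRS with EARS2 or PARS2, and FARSA or FARSB with FARS2). Among these genes, EPRS alone was called at 1000 nM in XG1, and EARS2 and FARSB in AMO1. At 1000 nM both members of a pair were lower in 3 pairs in XG1 (AARS with AARS2, TARS with TARS2, YARS with YARS2) and in 3 pairs in AMO1 (AARS with AARS2, LARS with LARS2, NARS with NARS2). The cytosolic member alone was called in 4 pairs in XG1 and 1 in AMO1, the mitochondrial member alone in 0 and 1, and neither in 6 and 8. Of all genes, 15.7% were called lower in XG1 and 15.4% in AMO1. When centred, AARS with AARS2 was the only pair with both members called, in each line. In the alanine pair the changes on the log2(FPKM + 1) scale were close, -0.80 for AARS beside -0.81 for AARS2 in XG1 and -0.84 beside -0.77 in AMO1. The level of AARS2 was far below that of AARS, so the +1 understates its change more, and equal falls cannot be read from these values. In the tyrosine pair the values were further apart, -0.47 for YARS beside -1.29 for YARS2 in XG1 and -0.36 beside -1.28 in AMO1. The arginine pair was -0.61 for RARS beside -0.02 for RARS2 in XG1 and -0.36 beside 0.06 in AMO1. The differences between members of a pair were not tested.

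The cytosolic enzymes can be grouped by how they are held in the cell and by how they are regulated. Of the 8 whose products sit in the multisynthetase complex, a particle that gathers enzymes around scaffold proteins, 3 were lower at 1000 nM in XG1 (EPRS, LARS and RARS) and 1 in AMO1 (LARS). When centred, 1 (LARS) and 0 were, while 969 and 815 of all 12204 genes were lower. Over all genes 15.7% were called lower in XG1 and 15.4% in AMO1, and 1 of 8 in AMO1 (12.5%) is below that share. Of the scaffold genes, EEF1E1 was lower at 1000 nM, with log2 changes of -1.05 ± 0.16 in XG1 (adjusted p = 0.000246) and -0.98 ± 0.16 in AMO1 (adjusted p = 0.000505). Its centred changes, -0.80 and -0.68, were also called. AIMP1 and AIMP2 were not called (AIMP2 -1.59 ± 0.55 in XG1, adjusted p = 0.0651; -1.33 when centred). By the fold of the catalytic domain, 5 of 10 class I and 4 of 10 class II enzymes were lower in XG1, and 1 of 10 and 4 of 10 in AMO1, the class I share there (10%) being below that of all genes. When centred, 1 of each class was lower in XG1 (LARS and AARS), and 0 and 1 (AARS) in AMO1.

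A list of 12 cytosolic synthetases linked to ATF4 was drawn from general knowledge and not from a reference (AARS, CARS, EPRS, GARS, IARS, LARS, MARS, NARS, SARS, TARS, WARS and YARS). Of these, 8 were lower at 1000 nM in XG1 (median -0.60) and 4 in AMO1 (median -0.42), against 15.7% and 15.4% of all genes called lower. When centred, 2 were lower in XG1 (AARS and LARS, median -0.35) and 1 in AMO1 (AARS, median -0.12). Over all 12204 genes 969 and 815 were lower when centred, so 1 of 12 in AMO1 is near the share of all genes. Of the other 8 cytosolic genes, 1 was lower in XG1 (RARS, median -0.13) and 1 in AMO1 (FARSB, median -0.32), and 0 in either line when centred. Among the 8 genes whose promoter held the response element core, 6 were lower at 1000 nM in XG1 and 4 in AMO1, with medians of -0.69 and -0.50. Among the 22 genes whose promoter sequence lacked it, 3 and 4 were lower, with medians of -0.25 and -0.31. DARS, LARS, VARS, YARS, AARS2 and VARS2, without a promoter entry, are in neither group, though LARS, YARS and AARS2 were called. Of the 8 genes with the core 7 are cytosolic, so the core and the compartment cannot be told apart here. When centred, 2 genes with the core were lower in each line (AARS and YARS2), and 1 without it (TARS2 in XG1 and LARS2 in AMO1). At 1000 nM the changes of the 8 genes with the core ran from -1.29 to -0.57 in XG1 and from -1.28 to -0.09 in AMO1. Those of the 22 genes without it ran from -0.94 to 0.17 and from -1.07 to 0.18. The core of CARS lies at the start of a gene that was called in XG1 and not in AMO1. IARS and MARS hold it and were called in neither, with changes of -0.68 and -0.71 in XG1. These groups were formed with the values known, and no test was made between them.

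ATF4 itself measured 43.2, 47.6 and 47.5 FPKM in XG1 at 1000 nM, against 115, 117 and 126 FPKM in DMSO, and 48.4, 47.7 and 41.0 FPKM at 100 nM. The XG1 groups did not overlap, with changes of -1.37 ± 0.20 at 100 nM (adjusted p = 0.000324) and -1.35 ± 0.20 at 1000 nM (adjusted p = 0.000163; -1.09 when centred, adjusted p = 0.00115). In AMO1 it measured 235, 262 and 275 FPKM at 1000 nM, against 513, 489 and 242 FPKM in DMSO, where replicate 3 lay among the treated libraries. The AMO1 change was -0.61 ± 0.20 (adjusted p = 0.0394; -0.32 when centred, adjusted p = 0.283), and it was lost without AMO1 DMSO replicate 1 (0.205) or 2 (0.201), without any 1 of the AMO1 1000 nM libraries (0.0615 to 0.138) or without XG1 DMSO replicate 2 (0.0502). It was also lost with a replicate block (0.0735), with no filter (0.097) and with only the compared groups' libraries (0.163). Without AMO1 DMSO replicate 3 the ATF4 change was -0.96 (adjusted p = 2.91e-05). Of 25 tested genes of the ATF4 and amino acid response, 14 were lower and 0 higher at 1000 nM in XG1, and 11 were lower and 2 higher in AMO1, against 15.7% and 15.4% of all genes lower. Their medians were -0.68 and -0.44. When centred, 11 were lower and 1 higher in XG1 (median -0.42), and 4 lower and 2 higher in AMO1 (median -0.15). Over all 12204 genes centring gave 969 lower and 969 higher in XG1, and 815 lower and 1012 higher in AMO1. CHAC1, which degrades glutathione, was lower in both lines (-2.29 in XG1 and -1.10 in AMO1, adjusted p = 1.06e-05 and 0.0066), and its centred changes were -2.03 and -0.81, the AMO1 one no longer called (adjusted p = 0.0649). SESN2, a leucine sensor, was higher in AMO1 (1.48 ± 0.16, adjusted p = 7.41e-06; 1.78 when centred) and not called in XG1 (-0.07 ± 0.16), and that difference between lines passed its own test (-1.56 ± 0.23, adjusted p = 0.0014). ATF3 was called lower in XG1 and higher in AMO1 at 1000 nM. In the test of XG1 minus AMO1 responses at that dose, 2 of the 25 genes were called below 0, SESN2 among them.

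Other parts of the translation and tRNA machinery were counted for comparison. None of 6 cytosolic elongation factors was called in any dose comparison, though EIF5A was called higher at 1000 nM in XG1 when centred. The 13 mitochondrial translation factors gave 4 lower at 1000 nM in XG1 and 1 in AMO1 (7.69%, against 15.4% of all genes), and 1 and 0 when centred, with GFM2 then called higher in XG1. MTIF2, a mitochondrial initiation factor, was the 1 called in both lines (-1.15 ± 0.20 and -0.72 ± 0.20, adjusted p = 0.000591 and 0.0153; -0.89 and -0.43 when centred, the AMO1 one no longer called). Of 22 genes for RNA polymerase III, which makes tRNA, and for tRNA processing, 11 were lower at 1000 nM in XG1 and 8 in AMO1, against 15.7% and 15.4% of all genes called lower, and the medians were -0.53 and -0.49. When centred, 6 were lower in each line, and 1 (TRNT1) was called higher in XG1. Over all 12204 genes centring gave 969 lower and 969 higher in XG1, and 815 lower and 1012 higher in AMO1. POLR3G, a polymerase subunit, had -1.18 in XG1 and -1.24 in AMO1 (adjusted p = 0.000619 and 0.000435; -0.92 and -0.95 when centred).

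Across the 36 synthetases the changes at 1000 nM ran in parallel in the lines, which share no libraries. The correlation over members was 0.69 (Pearson) and 0.62 (Spearman), against 0.35 and 0.47 over all 12204 genes, a description since genes of a library are not independent. Of the 36 members 31 had changes below 0 in both lines, as had 60.5% of all genes. Both lines called 6 of them (AARS, LARS, NARS, TARS, AARS2 and YARS2), which is 50% of the 12 called in XG1 and 60% of the 10 called in AMO1. Over all genes these shares of the lower calls were 48.3% and 49.5%. When centred, AARS, AARS2 and YARS2 were called in both lines.

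**Figure D4:**
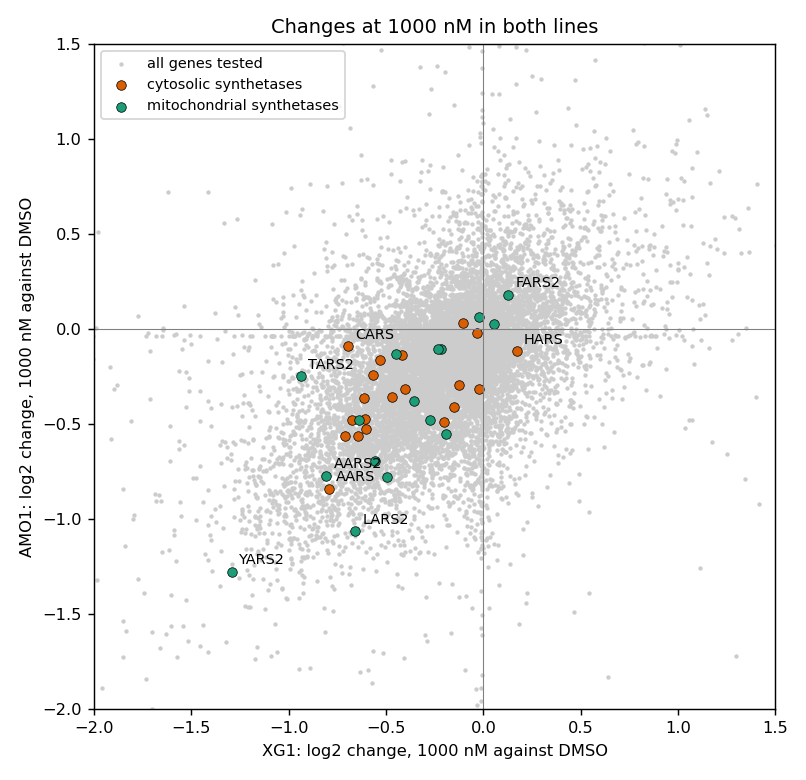
Log2 change at 1000 nM against DMSO in XG1 (horizontal) and AMO1 (vertical) for the synthetases and for all genes tested, of which 205 lie outside the axes shown. YARS2 lies lowest in both lines, and CARS and TARS2 lie low in XG1 (-0.70 and -0.94) and near 0 in AMO1 (-0.09 and -0.25).

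No member's response was shown to differ between the lines. The difference of the responses was called for 0 of 36 members at 100 nM (0.156% of all genes were called) and 0 at 1000 nM (0.68% of all genes), with 0 and 2 members at an unadjusted p under 0.05. Those 2 were CARS (-0.61 ± 0.23, unadjusted p = 0.0175, adjusted p = 0.328) and TARS2 (-0.69 ± 0.29, unadjusted p = 0.03, adjusted p = 0.404). For YARS2 the difference was -0.02 ± 0.33 and for AARS 0.05 ± 0.21. The step from 100 to 1000 nM was called for no member in XG1 (0.139% of all genes) or AMO1 (0.18% of all genes), with 5 and 4 members at an unadjusted p under 0.05. TARS2 in XG1 came closest (-0.86 ± 0.21, adjusted p = 0.0799).

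Before treatment the lines differed in 26 of the 36 synthetases, and they also differed in most of all genes tested (62.7%). In DMSO, 6 cytosolic genes were higher in XG1 than in AMO1 (AARS, DARS, EPRS, IARS, LARS and VARS) and 9 were lower (CARS, FARSA, FARSB, GARS, HARS, MARS, QARS, WARS and YARS). Of the mitochondrial genes 7 were higher (EARS2, IARS2, NARS2, RARS2, SARS2, VARS2 and WARS2) and 4 lower (CARS2, HARS2, LARS2 and TARS2). Such calls were common over all genes (62.7%, with 28.3% higher and 34.4% lower). The 44 spike-in RNAs measured differed between the lines with an SD of 0.55 (log2), and the lines differ in the marker genes given above. The part of either in these differences was not tested. The FARSA call was lost under 13 alternatives, among them those without AMO1 DMSO replicate 2 or 3 (adjusted p = 0.129 and 0.0965) or XG1 DMSO replicate 2 or 3 (0.121 and 0.17). QARS was lost without AMO1 DMSO replicate 1 (0.117) or 2 (0.0721) or XG1 DMSO replicate 3 (0.061). SARS2 was lost without AMO1 DMSO replicate 3 (0.161) or XG1 DMSO replicate 2 or 3 (0.0709 and 0.0565), and VARS2 without AMO1 DMSO replicate 1 or 3 (0.0725 and 0.0812) or XG1 DMSO replicate 3 (0.0884). The AARS call was lost with only the compared groups' libraries (0.0534).

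**Figure D5:**
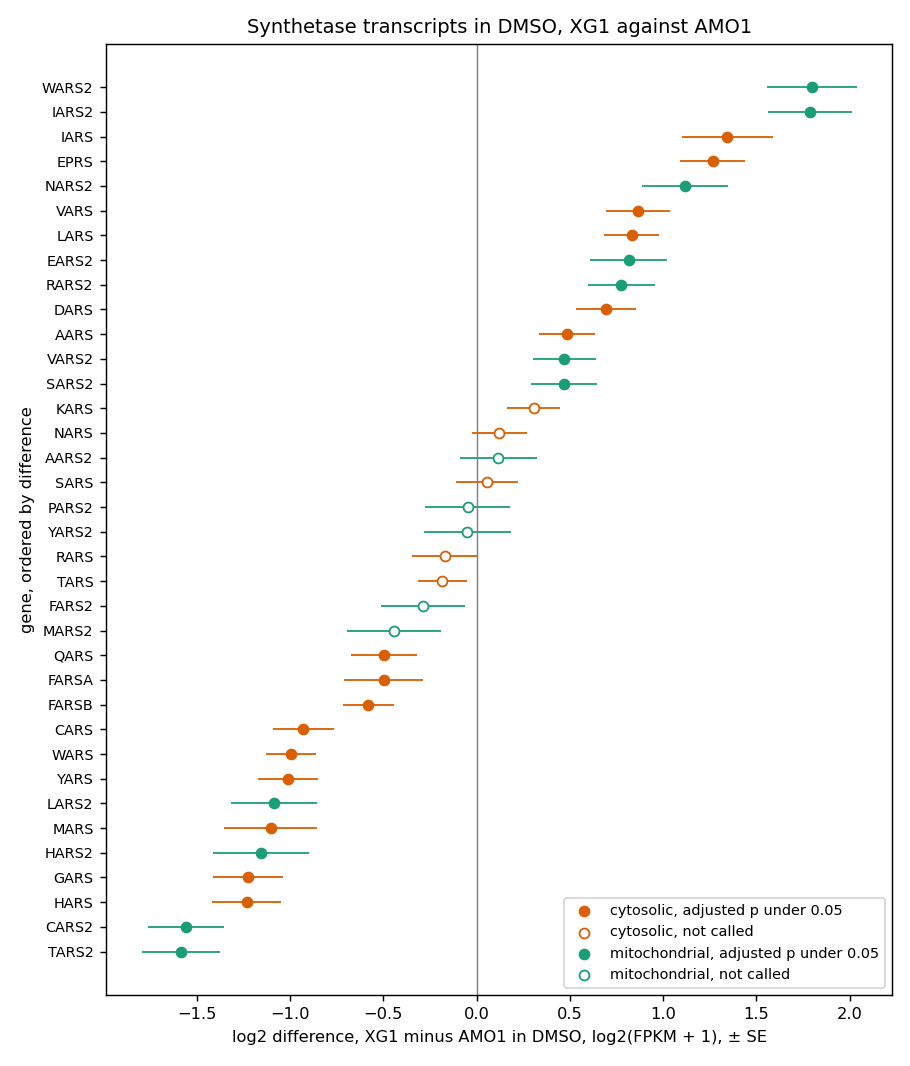
Log2 difference of XG1 minus AMO1 in DMSO on the log2(FPKM + 1) scale, with its standard error, for each synthetase in order of size. Filled points passed an adjusted p of 0.05, from WARS2 at 1.80 to TARS2 at -1.59.

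WARS2 measured 7.69, 9.18 and 7.56 FPKM in XG1 DMSO, against 1.51, 2.50 and 1.06 FPKM in AMO1 DMSO (1.80 ± 0.24, adjusted p = 1.8e-06). IARS2, the mitochondrial isoleucyl enzyme, had 35.2, 35.0 and 28.1 FPKM in XG1, against 8.92, 7.45 and 9.97 FPKM in AMO1 (1.79 ± 0.22, adjusted p = 7.46e-07). IARS, its cytosolic counterpart, had 22.2, 18 and 15.2 FPKM in XG1, against 6.72, 5.93 and 7.13 FPKM in AMO1 (1.34 ± 0.25, adjusted p = 8.13e-05). Both isoleucyl enzymes were thus higher in XG1, and neither overlapped AMO1. TARS2 had 5.65, 5.06 and 3.98 FPKM in XG1, against 18.9, 18.6 and 12.9 FPKM in AMO1 (-1.59 ± 0.21, adjusted p = 1.39e-06). CARS2, the mitochondrial cysteinyl enzyme, had 13.2, 13.4 and 13.8 FPKM in XG1, against 50.1, 51.0 and 28.3 FPKM in AMO1 (-1.56 ± 0.20, adjusted p = 1.36e-06). HARS had 10.2, 12.2 and 14.9 FPKM in XG1, against 38.3, 29.9 and 24.0 FPKM in AMO1 (-1.23 ± 0.18, adjusted p = 7.75e-06). These 3 were lower in every XG1 library than in any AMO1 library. YARS2, AARS2 and TARS, all lower at 1000 nM in both lines, did not pass the test between lines in DMSO (-0.05, 0.12 and -0.18).

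The GENCODE annotation of GRCh38 places another gene over the last 1000 bases of 5 members, where 3′ end reads fall, and the sources used here do not say whether counting used strand. DNM1L lies on the opposite strand at YARS2 and was not called at 1000 nM (-0.32 in XG1 and -0.29 in AMO1, adjusted p = 0.224 and 0.279). DDIT3, a stress transcription factor, lies opposite MARS and was lower in both lines (-1.10 and -0.43, adjusted p = 3.8e-05 and 0.0437; -0.85 and -0.14 when centred, the AMO1 one no longer called), so the values of MARS are uncertain. WDR55 lies opposite HARS, TMEM151B opposite AARS2, and ZMAT2 on the same strand over HARS2. Between the lines in DMSO, ZMAT2 was lower in XG1 by -1.30 (limma adjusted p = 5.66e-06), beside -1.16 for HARS2. DDIT3 was lower there by -0.70 (adjusted p = 0.000265), beside -1.10 for MARS. WDR55 (-0.45) and DNM1L (-0.21) were not called between the lines. The differences of HARS2 and MARS between the lines are thus uncertain as well. HARS and HARS2 are also close copies of each other whose reads may have been shared out between them. The part of these neighbours in the results was not tested.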

How the data were processed

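The submitters' processing notes name HISAT2, Cuffnorm and the hg19 build. The deposited tables hold 1 value per gene and library, taken here as FPKM computed by the authors, since the tables name no unit and Cuffnorm writes FPKM. Depth is unknown and no value is 0. The commonest value below 1 FPKM ran from 0.0745 to 0.1333 over the libraries. No counting interval can be given.

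Values of all 18 libraries were transformed to log2(FPKM + 1). Genes whose mean reached 1 FPKM in any group were fitted (12204 genes, all 36 members). The +1 understates the change of low genes. A single limma model (version 3.58.1, R 4.3.3, statmod 1.5.0, trended and robust variance) with a mean per group gave 9 two-sided contrasts. Both doses share their DMSO libraries. Benjamini-Hochberg adjustment ran over all genes tested, with a threshold of 0.05.

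Full values per library go to the called members with the largest changes, at most 6 per class and line, and to the 3 highest and 3 lowest between the lines; of other lists, to at most 3 called genes per direction and ATF4. PARS2, AIMP2 and the members named for missing the threshold were singled out after their values were seen. The members and lists were chosen with earlier results of these data known. Scripts were tested on simulated data. Alternatives were a pseudocount of 0.1, no filter, median centring, quantile normalization, ERCC scaling, a replicate block, the compared groups' libraries alone, and each library left out. Promoters came from RefSeq tables on GRCh38.p14, and no hg19 sequence was used.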

Additional observations from a re-analysis of the deposited data

Results flagged for a closer look

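MARS2, the mitochondrial methionyl enzyme, had changes of opposite sign in the lines at 100 nM, and neither was called. At that dose 28 of the 36 members had the same sign in both lines, as had 7562 of 12204 genes. Opposite signs were thus not particular to MARS2. The log2 change of MARS2 was 0.18 in XG1, with 5.91, 7.17 and 5.48 FPKM at 100 nM, against 7.40, 4.75 and 4.26 FPKM in DMSO. In AMO1 the change was -0.33, with 7.27, 4.37 and 6.29 FPKM at 100 nM, against 8.21, 6.24 and 8.58 FPKM in DMSO. The groups overlapped in both lines, and the difference between the responses (XG1 minus AMO1, 0.50 ± 0.35) did not pass limma's test (adjusted p = 0.732).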

How the results depend on the processing

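Counts of synthetases called lower changed with the processing, as did those of all genes, and the cause was not tested. At 1000 nM in XG1 the cytosolic count was 9 in the reported analysis and 5 with no filter, with a replicate block or under quantile normalization (with HARS called higher), and 2 after median centring. Over all genes 1920 of 12204 were lower in the reported analysis, 1350 with the block, 1209 under quantile normalization and 969 after centring. With no filter 1386 of 26249 were. At 1000 nM in AMO1 the cytosolic count of 5 became 1 after centring, 2 under quantile normalization or with only the compared groups' libraries, and 3 with the replicate block. The mitochondrial count of 5 there became 3 with no filter, centring, quantile normalization or the block. Over all genes there, 1874 of 12204 were lower in the reported analysis, 815 after centring, 1011 under quantile normalization and 1314 with the block. With no filter 1422 of 26249 were, and with only the compared groups' libraries 1615 of 10585. At 100 nM in AMO1 the cytosolic count of 1 became 0 with a pseudocount of 0.1, no filter, centring, the block, or only the compared groups' libraries. Lower calls over all genes there were 215 of 12204 in the reported analysis, 94 with that pseudocount, 188 after centring and 89 with the block. They were 144 of 26249 with no filter and 44 of 10531 with only the compared groups' libraries. At 100 nM in XG1 the cytosolic count of 2 became 0 with the block, and the mitochondrial count of 1 became 3 under quantile normalization. Lower calls over all 12204 genes there were 486 in the reported analysis, 281 with the block and 986 under quantile normalization. The cytosolic minus mitochondrial median at 1000 nM in AMO1 was 0.058 under quantile normalization, and FARSA between the lines changed sign (0.0076).

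With single libraries left out, the cytosolic and mitochondrial counts spanned 0 to 6 and 0 to 1 (XG1, 100 nM), 5 to 12 and 2 to 6 (XG1, 1000 nM), 0 to 1 and 0 to 4 (AMO1, 100 nM), and 1 to 11 and 2 to 5 (AMO1, 1000 nM). Between the lines in DMSO they spanned 13 to 16 and 9 to 12. The counts over all genes moved as well. Lower calls at 1000 nM in XG1 were 936 of 12269 without XG1 1000 nM replicate 2 and 2378 of 12226 without XG1 1000 nM replicate 3. The step between doses gave 0 to 2 calls in XG1 and 0 to 0 in AMO1, and the difference of responses gave 0 to 0 at each dose. The cytosolic minus mitochondrial median spanned -0.33 to -0.10 and -0.18 to 0.03 in XG1 and -0.017 to 0.21 and -0.017 to 0.20 in AMO1 at 100 and 1000 nM.

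Same-numbered libraries did not deviate together. Their correlations ran from -0.05 to 0.03 in XG1 and from -0.12 to 0.09 in AMO1. A library correlated best with its own number in another group in 2 of 18 library and group pairs in XG1 and 7 of 18 in AMO1. The block was therefore used only as an alternative and not in the reported analysis. Depth is unknown, so the precision it allows for genes near 1 FPKM, such as NARS2 and EARS2, cannot be given.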
